A study of Mus musculus with 8 samples.

Results

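The 33 genes described here encode the subunits of mouse Mediator, and were taken as every row of the deposited expression table named Med followed by a number, with or without an l, together with Ccnc, Cdk8 and Cdk19. They were 33 of the 23358 rows of the table, and all 33 were among the 14148 genes that passed the filter on low values. RNA-seq was performed on the cervical loop of the mouse lower incisor, dissected into the head (CLH), which houses dental epithelial stem cells, and the tail (CLT), which holds their progenies. In the cKO mice, a Krt14-Cre transgene recombined floxed alleles (Med1 fl/fl) and removed exons 8 to 10 of Med1, and Cre-negative littermates served as Ctrl. All mice were 4 weeks old, on a C57BL/6 background, and came from 2 litters, with duplicate libraries described as biological. Cervical loop tissues of several mice were pooled within a group, so a library does not stand for 1 animal. The 8 libraries made 4 groups of 2, Ctrl CLH, cKO CLH, Ctrl CLT and cKO CLT. The Krt14 promoter drives Cre in epithelium only, so any mesenchyme in a dissected piece kept its Med1 alleles. The genotype of the Ctrl mice at the floxed alleles is not given in the sources used here.

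Mediator is a large protein assembly that carries signals from enhancer-bound transcription factors to RNA polymerase II at the promoter. Its head and middle modules contact the polymerase, its tail module is the main landing surface for transcription factors, and MED14 is the backbone that ties these modules together. A separable kinase module, built from CDK8 or CDK19, cyclin C, MED12 or MED12L, and MED13 or MED13L, docks on the core and controls whether the polymerase can bind it. MED1, in the middle module, binds nuclear receptors and gathers on super-enhancers, and in skin and tooth epithelium it is known for its part in cell fate.

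The bases that recombination takes out of the cKO epithelium are shown first, since they decide what a gene-level value of Med1 can show. They are coding exons in the GENCODE M21 transcript Med1-203 (GRCm38, mm10), by whose order they are numbered here, and are printed in the direction of the transcript. The sources used here do not name the transcript by which the floxed exons were numbered, so the deleted bases may differ from these.

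Med1 exon 8, chr11:98171696-98171770, minus strand: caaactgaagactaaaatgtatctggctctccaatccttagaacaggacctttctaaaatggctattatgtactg
Med1 exon 9, chr11:98170948-98171021, minus strand: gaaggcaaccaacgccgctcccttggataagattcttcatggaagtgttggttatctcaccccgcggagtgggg
Med1 exon 10, chr11:98169363-98169452, minus strand: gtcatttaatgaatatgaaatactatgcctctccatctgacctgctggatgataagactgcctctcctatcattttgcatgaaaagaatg

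These 3 exons hold 75, 74 and 90 bases, 239 bases in all, and 239 is not a multiple of 3 (the remainder is 2). By this numbering, they amount to 3.15% of the 7589 bases over which the authors counted Med1 reads. Loss of every read on them, with all other reads kept, would lower the log2 value of the gene by 0.046. The gene value of Med1 is therefore a level of the whole transcript, deleted or not, and is no check of the genotype.

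**Figure D1:**
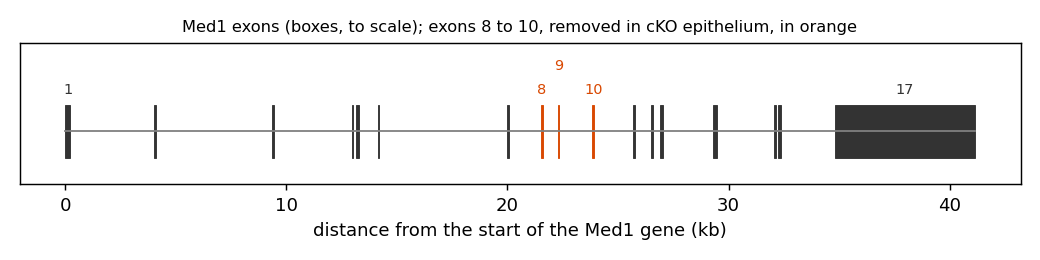
Exons of Med1 (boxes, to scale) along the gene, in kb from its start. Exons 8 to 10 by this numbering (orange) are 3 short internal exons, and the last exon, 17, is the longest.

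The libraries of the 4 groups were not alike in tissue, which precedes every result on CLT. Reads on genes numbered 22330512 to 28651106 per library. Summed RPKM (read counts scaled to gene length and library total, the deposited unit) of 7 ameloblast markers was 12500 to 14320 in the 4 CLH libraries, 84580 and 37390 for Ctrl CLT, and 19.7 and 15.8 for cKO CLT. Enamel and dentin genes were near 0 in both cKO CLT libraries. The enamel protein gene Amelx had RPKM of 6.57 and 3.68 there, the dentin gene Dspp 0.145 and 0.174, and the bone gene Ibsp was at 0. Of the 5 odontoblast and bone markers, Col1a1, which fibroblasts also express, kept RPKM of 376.4 and 471.5 there. The 5 dental epithelium markers were highest in cKO CLT, with sums of 1688 and 1916 beside 1319 and 823.7 for Ctrl CLT and 595.8 to 693.8 in CLH. Among them were the keratin genes Krt14 and Krt5, which basal cells of skin express as well. The 5 hair and epidermis markers summed to 4881 and 5430 in cKO CLT, to 1623 in the first and 7.55 in the second Ctrl CLT library, and to 7.08 to 14.9 in CLH. The 5 skeletal muscle markers followed, with 1745 and 1921 in cKO CLT, 638.1 and 48.0 for Ctrl CLT, and 26.1 to 30.4 in CLH, and so did the 5 melanocyte markers, with 393.6 and 395.6, 128.5 and 9.89, and 3.60 to 3.85. All 5 hair and all 5 melanocyte markers had a mean of at least 1 RPKM in cKO CLT. The first Ctrl CLT library thus carried markers of hair, muscle and pigment cells that the second nearly lacked. The labels call all samples dental epithelial cells, but the odontoblast and bone markers summed to 2075 to 3040 in CLH. These tissue differences run with region and genotype, and their part in each result on CLT below was not tested. In such bulk tissue, fewer cells of a type and less RNA per cell cannot be told apart.

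Replicate agreement of the subunits followed the same split. Within a group, on the log2(RPKM + 1) scale, the 33 subunits had a median absolute log2 difference of 0.083 (Ctrl CLH), 0.084 (cKO CLH) and 0.12 (cKO CLT). In Ctrl CLT this median was 0.35, beside 0.40 over all genes tested. There, 5 subunits were apart by over 1.5-fold on that scale, beside 34.6% of all genes, with Med29 at the largest difference, 0.86. On RPKM itself 7 were, and Med12l, the lowest in level, was furthest apart at 2.39-fold. No subunit passed 1.5-fold on either scale in the other groups, where 0.8% to 1.1% of all genes did on the first.

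All 33 subunits were detected in every library, and their mean RPKM over the libraries ran from 0.756 to 39.5. Reads per subunit and library ran from 99 (Med12l) to 3856 (Med13). Med10, which joins the middle module to the backbone, had the highest mean RPKM of all 8 libraries, 39.5, followed by Med4 at 28.6 and Med21 at 27.5, both middle subunits. Med26, the middle subunit that recruits elongation factors, had a mean of 4.18, Med18 of the head 3.78, and Med12l of the kinase module 0.756. The order was loose between neighbours. Of the 32 pairs of subunits next to each other in this order, 31 had overlapping ranges over the 8 libraries, and the exception was the step from Med18 to Med12l. Med10 ranked between 1 and 3 in every library, and Med12l ranked 33 in each. Summed RPKM of all 33 subunits was 453.2 to 462.9 in the 4 CLH libraries, 412.6 and 429.6 for Ctrl CLT, and 441.8 and 441.7 for cKO CLT. All 8 sums thus lay between 412.6 and 462.9. Exons of 15 subunits share no bases with another annotated gene, and 8 subunits share over 10% of them. Med10 shares the most, 92.8% of its 4491 annotated exon bases, with the predicted gene Gm26819. The authors counted Med10 over 862 bases, and the share of those was not computed. Since the strand setting of the count is not given in the sources used here, its values may include reads of that gene.

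**Figure D2:**
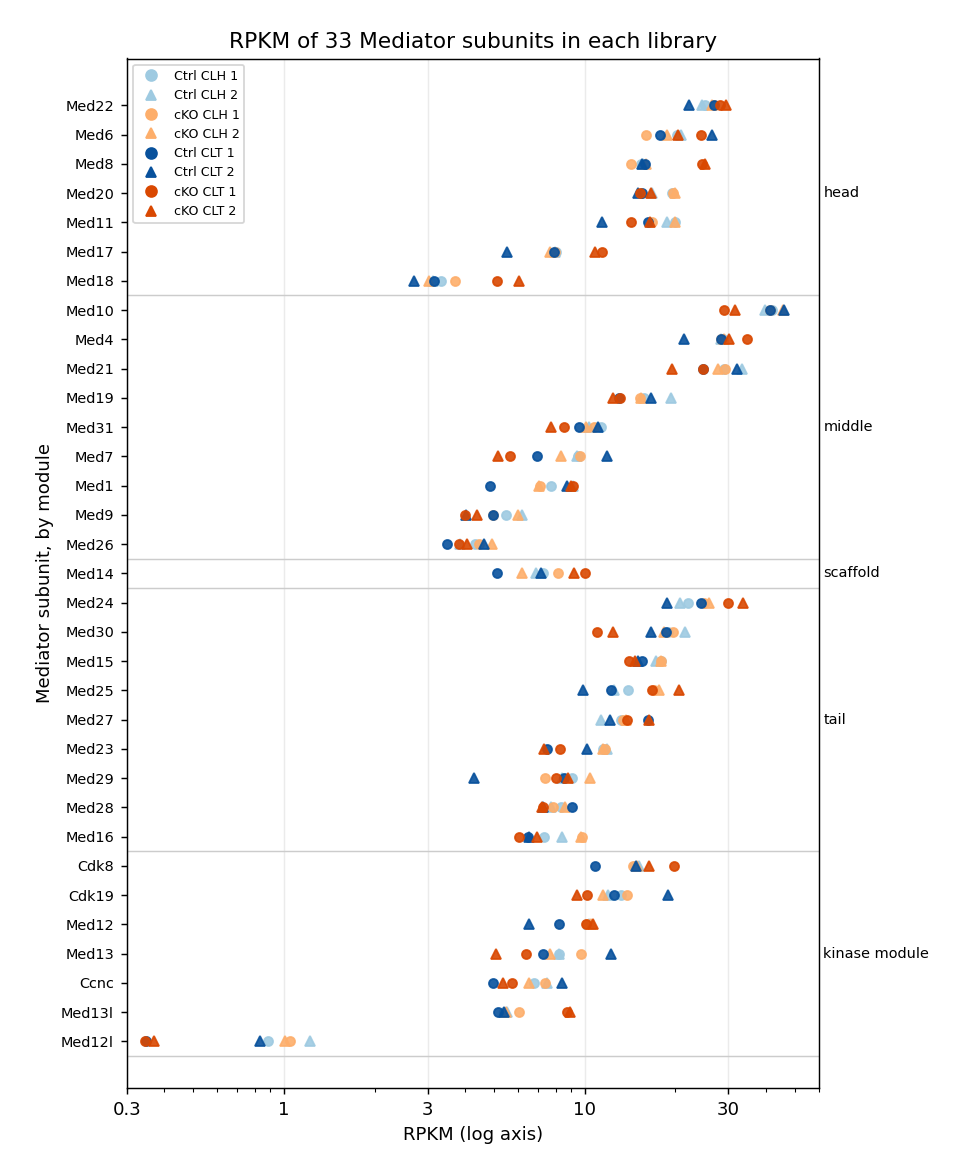
RPKM (log axis) of the 33 subunits, in rows by module, in the 8 libraries (colours are groups, circles library 1 and triangles library 2). Most subunits lie between 4 and 40 RPKM, and Med12l is lowest in every library. The cKO CLT points stand apart from the others for several subunits, such as Med8, Med18, Med13l, Med10 and Med30.

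The promoters of subunits that move apart are shown next, as regulatory sequence beside the values that follow. RefSeq promoters (GRCm38.p6, 250 bases before to 50 after each start) matched 28 of the 33 genes with 32 starts, and Cdk19, Med23, Med24, Med30 and Med8 had no entry. Printed are the 150 bases before each start of Med13 and its paralogue Med13l, and of both starts of Med10. The span over which Med10 was counted begins at the downstream start (69809882), so the upstream start lies outside it. Capitals mark a GC box (GGGCGG), the letters to which SP factors bind, or an ETS word (CCGGAAG), each on either strand.

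Med13, chr11:86357597-86357746, minus strand: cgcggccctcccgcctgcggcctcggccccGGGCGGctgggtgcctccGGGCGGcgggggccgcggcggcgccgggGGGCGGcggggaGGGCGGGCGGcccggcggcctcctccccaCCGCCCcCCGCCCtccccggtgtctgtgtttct
Med13l, chr5:118560569-118560718, plus strand: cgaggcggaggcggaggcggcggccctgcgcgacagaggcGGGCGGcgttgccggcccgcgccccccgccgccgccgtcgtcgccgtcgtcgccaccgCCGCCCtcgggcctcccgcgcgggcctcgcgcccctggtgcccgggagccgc
Med10, chr13:69802220-69802369, plus strand: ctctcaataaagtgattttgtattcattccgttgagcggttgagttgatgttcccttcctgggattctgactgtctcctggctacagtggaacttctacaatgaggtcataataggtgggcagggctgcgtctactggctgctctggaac
Med10, chr13:69809732-69809881, plus strand: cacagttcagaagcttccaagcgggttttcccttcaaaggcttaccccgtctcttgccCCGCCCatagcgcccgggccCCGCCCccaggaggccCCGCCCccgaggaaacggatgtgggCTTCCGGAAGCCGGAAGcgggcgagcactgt

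The Med13 stretch held 7 GC boxes, Med13l 2, the upstream Med10 start none, and the downstream Med10 start 3 GC boxes and 3 ETS words, with overlapping matches counted. Over the whole 300-base windows, a GC box stood in 62.5% of the 32 subunit promoters against 35.7% of all 32851 RefSeq promoters, and an ETS word in 28.1% against 8.86%. CCAAT stood in 37.5% against 37.4%, the E-box CACGTG in 12.5% against 7.15%, and TATAAA in 9.38% against 13.6%. GC content, with which the count of GC boxes runs, had a median of 57.8% in the subunit promoters and 52.7% in all. The ratio of observed to expected CG pairs had a median of 0.786 beside 0.384 in all. The GC box and the ETS word both hold a CG, and promoters of like composition were not compared. A match is a description of letters, not of a bound site.

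Deletion of Med1 was first examined in the stem cell tissue, CLH, where the 2 genotypes had like tissue markers. Subunit levels were nearly level between cKO and Ctrl CLH. On the log2(RPKM + 1) scale on which all fold changes here were fitted, the differences ran from -0.24 for Med6 to 0.36 for Med25, with a median of 0.005 beside -0.005 for all genes tested, and 18 were positive and 15 negative (15 and 18 with quantile normalization). With limma and a Benjamini-Hochberg adjusted p under 0.05 over all 14148 genes, 0 subunits were higher and 0 lower, and 0.0% of all genes were called in either direction. At an unadjusted p under 0.05, 3 subunits were higher (Med25, Med24 and Med16, beside 4.83% of all genes) and 0 lower (beside 2.42%). Groups did not overlap for 7 subunits that were higher in cKO (19.9% of all genes) and 4 that were lower (18.8%). With 2 libraries a group, these p-values rest only on the spread between these libraries. In limma, the spread of each gene is drawn toward a trend over all genes tested. An exact permutation test of 2 against 2 cannot go below p = 0.333.

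Med1 itself had RPKM of 7.71 and 9.12 in Ctrl CLH beside 7.10 and 7.03 for cKO CLH. Both cKO values were below both Ctrl values, by a log2 difference of -0.22 (SE 0.11, adjusted p = 0.708, limma), which did not pass the test. The 3 tail subunits with the lowest p lay the other way. Med25, a tail subunit that several activators bind, had RPKM of 13.9 and 12.5 in both Ctrl CLH libraries, against 16.96 and 17.6 in those of cKO CLH (log2 difference 0.36, SE 0.08, adjusted p = 0.688). Med16, another tail subunit, had 7.33 and 8.37 in Ctrl CLH beside 9.80 and 9.69 for cKO CLH (0.28, SE 0.09, adjusted p = 0.688). Med24, a tail subunit needed for thyroid receptor-driven transcription, had 22.0 and 20.7 in both Ctrl CLH libraries, against 24.8 and 25.8 in those of cKO CLH (0.24, SE 0.06, adjusted p = 0.688). For each of these tail genes both cKO libraries stood above both Ctrl libraries. Med6, which sits where the head meets the middle, had 20.3 and 20.9 in Ctrl CLH beside 16.0 and 18.8 for cKO CLH, again without overlap and without a call (-0.24, SE 0.09, adjusted p = 0.691). Med19, a middle subunit, was close behind with 15.7 and 19.3 in Ctrl CLH against 15.2 and 15.4 in cKO CLH (-0.17, SE 0.11, adjusted p = 0.731). In the kinase module, all 7 differences lay between -0.035 (Ccnc) and 0.063 (Med13), and every group overlapped.

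In the progeny tissue, CLT, the differences between cKO and Ctrl spanned a wider range, and their signs were unevenly spread over the modules. They ran from -0.66 for Med7 to 0.74 for Med18, with a median of 0.036 beside -0.009 for all genes, and 17 were positive and 16 negative. All 7 head subunits had a positive difference (Med6 turned negative with quantile normalization). Of the 9 middle subunits, 7 had a negative one (Med26 turned positive with either other scaling). The head is without Med27 to Med30 here, which structures place in the head or the tail. Of these, Med28 and Med30 had a negative difference, and Med27 and Med29 a positive one. Between one Ctrl CLT library and the other, the sign changed for Med6 and Med11 of the head and for Med9 and Med26 of the middle. No subunit passed the adjusted threshold in the fit of the 4 CLT libraries, in which 0.0777% of all genes were called higher and 1.68% lower. Unadjusted p-values fell under 0.05 for 6 subunits that were higher in cKO (19.8% of all genes) and 2 that were lower (16.4%). The groups did not overlap for 12 subunits higher in cKO (37.2% of all genes) and 7 lower (35.1%), so the first share of the 33 was close to that of all genes and the second below it. Voom on the recovered reads called 0 subunits here, in CLH and between regions of Ctrl mice. With all 8 libraries in 1 fit, which takes the spread from all 4 groups, 8 subunits were called higher (Med8, Med13l, Med17, Med25, Med18, Med24, Med12 and Med14, beside 23.7% of all genes) and 2 lower (Med10 and Med30, beside 20.0%).

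**Figure D3:**
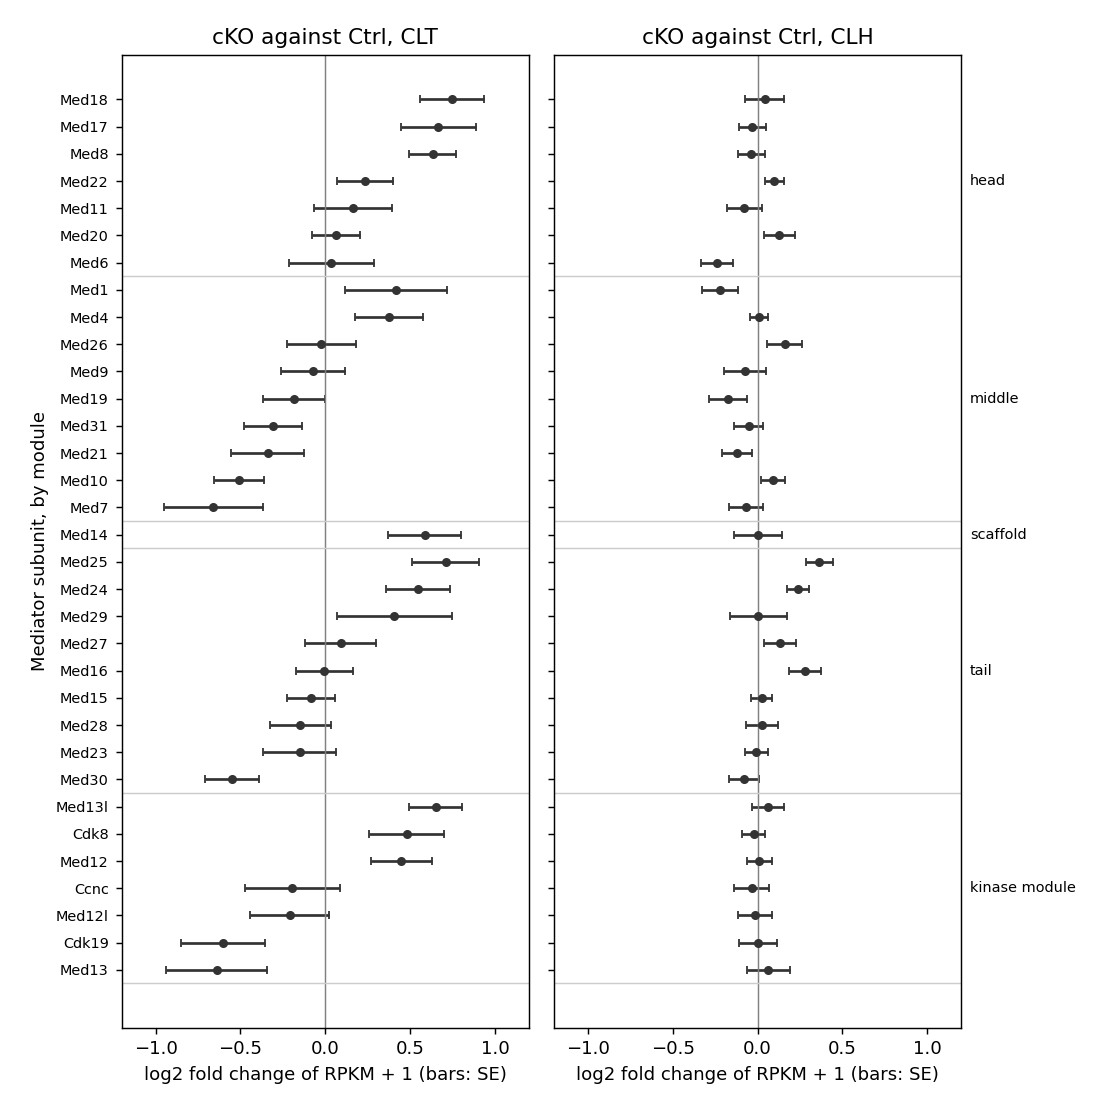
Log2 fold change of RPKM + 1 (points, with SE as bars, 2 libraries a group) of cKO against Ctrl for each subunit, by module, in CLT (left) and CLH (right). The CLT differences span -0.66 to 0.74, while the CLH differences stay between -0.24 and 0.36. In CLT all 7 head subunits are positive (Med6 not with quantile normalization), with Med27 to Med30 kept in the tail.

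The head module contacts RNA polymerase II and holds 7 genes here. Med18, which pairs with MED20 in the movable jaw of the head, had RPKM of 3.14 and 2.71 in Ctrl CLT beside 5.10 and 6.06 for cKO CLT, while the CLH libraries held 3.03 to 3.71. Both cKO CLT libraries stood above the other 6 (log2 difference in CLT 0.74, SE 0.19, adjusted p = 0.0904). Med17, the central subunit on which the head is built, had 7.92 and 5.51 in both Ctrl CLT libraries, against 11.4 and 10.8 in those of cKO CLT, and 7.66 to 8.04 in CLH (0.67, SE 0.22, adjusted p = 0.121). Med8, which anchors MED18 to the head, had 15.8 and 15.5 in Ctrl CLT beside 24.4 and 25.1 for cKO CLT, and 14.2 to 16.0 in CLH (0.63, SE 0.14, adjusted p = 0.0774). For Med17 and Med8 too, both cKO CLT libraries were the highest of the 8. The differences of Med22, Med11, Med20 and Med6 were smaller, 0.23, 0.16, 0.062 and 0.036, and only Med22 of these had groups that did not overlap. Med11 had 16.3 and 11.4 in both Ctrl CLT libraries, against 14.3 and 16.5 in those of cKO CLT, and 16.7 to 19.9 in CLH. Med6 had 17.8 and 26.4 in Ctrl CLT, a wider gap than between its cKO CLT values of 24.3 and 20.3.

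The middle module leaned the other way, with a median difference of -0.19 and Med1 and Med4 as its 2 positive members. Med7, which forms a hinge with MED21, had RPKM of 6.91 and 11.9 in Ctrl CLT libraries, 5.65 and 5.13 in those of cKO CLT and 8.32 to 9.65 in CLH. Both cKO CLT values were the lowest of all 8 libraries, but the 2 Ctrl CLT libraries were far apart (-0.66, SE 0.29, adjusted p = 0.189). Med10 had 41.2 and 45.9 in Ctrl CLT libraries, 29.1 and 31.6 in those of cKO CLT and 39.6 to 45.5 in CLH. The 2 cKO CLT libraries again lay below the other 6, and here the controls were close (-0.51, SE 0.15, adjusted p = 0.103). Med31, the small knob of the middle module, had a difference of -0.31 without overlap, and Med21, the partner of MED7, one of -0.34 with overlap. Med4 had 28.4 and 21.4 in Ctrl CLT beside 34.6 and 30.2 for cKO CLT, and 28.3 to 29.0 in CLH (0.37, SE 0.20, adjusted p = 0.249). The remaining middle subunits, Med9, Med19 and Med26, had differences between -0.19 and -0.02, and their groups overlapped.

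Med1, the gene deleted in cKO epithelium, had RPKM of 4.83 and 8.71 in both Ctrl CLT libraries, against 9.15 and 8.96 in those of cKO CLT. The cKO values were above both Ctrl values, but the second Ctrl library lay just under them. The log2 difference was 0.42 (SE 0.30, adjusted p = 0.357), and it was 0.79 against the first Ctrl library alone and 0.05 against the second. Its whole-transcript level was thus not lower in cKO CLT in any pairing of libraries.

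Med14, the backbone, had RPKM of 5.09 and 7.16 in Ctrl CLT libraries, 9.99 and 9.18 in those of cKO CLT and 6.18 to 8.11 in CLH. Both cKO CLT libraries were the highest of the 8 (0.59, SE 0.22, adjusted p = 0.142).

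The tail, where activators bind, was split. Med25 had RPKM of 12.2 and 9.85 in Ctrl CLT beside 16.7 and 20.6 for cKO CLT (0.71, SE 0.20, adjusted p = 0.0989), and Med24 had 24.3 and 18.8 against 29.9 and 33.4 (0.54, SE 0.19, adjusted p = 0.13). Both had also been higher in cKO CLH, and for neither did the groups overlap in either region. Med30 lay lower, with 18.6 and 16.5 in Ctrl CLT libraries, 10.97 and 12.4 in those of cKO CLT and 18.4 to 21.5 in CLH (-0.55, SE 0.16, adjusted p = 0.104). Its 2 cKO CLT values were the lowest of the 8 libraries. Med29 had 8.55 and 4.28 in Ctrl CLT against 8.02 and 8.82 in cKO CLT, and one library decided its difference of 0.41. Against the first Ctrl library that difference was -0.02 and against the second 0.83. Med15, the tail subunit that SREBP factors bind, differed by -0.08 without overlap, and Med27, Med16, Med28 and Med23, a target of the MAP kinase-driven factor ELK1, had differences between -0.15 and 0.09 with overlap. Structures place Med27 to Med30 in the head or the tail, and they were kept in the tail here.

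In each of the 3 paralogue pairs of the kinase module the differences lay on opposite sides of 0, though none passed the test, and without the second Ctrl CLT library Med12l was at 0.010, on the side of Med12. Med13l had RPKM of 5.13 and 5.39 in Ctrl CLT libraries, 8.73 and 8.91 in those of cKO CLT and 5.40 to 6.03 in CLH (0.65, SE 0.16, adjusted p = 0.0855). Med13, its paralogue, had 7.26 and 12.2 in Ctrl CLT libraries, 6.37 and 5.08 in those of cKO CLT and 7.65 to 9.69 in CLH (-0.64, SE 0.30, adjusted p = 0.203). MED13 and MED13L are the alternative subunits that hold the kinase to the core. Cdk8 had 10.8 and 14.8 in Ctrl CLT libraries, 19.8 and 16.3 in those of cKO CLT and 14.4 to 15.2 in CLH (0.48, SE 0.22, adjusted p = 0.202). Cdk19 had 12.5 and 18.9 in Ctrl CLT libraries, 10.15 and 9.44 in those of cKO CLT and 11.5 to 13.8 in CLH (-0.60, SE 0.25, adjusted p = 0.166). CDK8 and CDK19 are the 2 alternative kinases, and in cKO CLT the first was the highest and the second the lowest of the 8 libraries. Med12, which activates the kinase, had 8.17 and 6.54 in both Ctrl CLT libraries, against 10.1 and 10.6 in those of cKO CLT, where it was at the CLH level of 10.1 to 10.5 (0.45, SE 0.18, adjusted p = 0.162). Med12l had 0.347 and 0.830 in Ctrl CLT libraries, 0.345 and 0.369 in those of cKO CLT and 0.882 to 1.22 in CLH (-0.21, SE 0.23, adjusted p = 0.54). Ccnc, the cyclin, had 4.95 and 8.42 in Ctrl CLT, with the cKO CLT values of 5.74 and 5.36 between them (-0.19, SE 0.28, adjusted p = 0.639).

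Ratios of paralogues within a library set aside any scaling of that library, and they are given as a description. The RPKM ratio of Cdk19 to Cdk8 was 0.901 and 0.789 for Ctrl CLH libraries, 0.958 and 0.773 for those of cKO CLH, 1.16 and 1.28 for Ctrl CLT, and 0.513 and 0.579 for cKO CLT. Cdk19 was thus the more abundant kinase transcript in Ctrl CLT and Cdk8 in the other 3 groups. The ratio of Med13 to Med13l was 1.52 and 1.49 for Ctrl CLH libraries, 1.61 and 1.40 for those of cKO CLH, 1.41 and 2.27 for Ctrl CLT, and 0.730 and 0.570 for cKO CLT. Med13l exceeded Med13 in cKO CLT alone. The ratio of Med12 to Med12l was 8.41 to 11.5 in CLH, 23.6 and 7.89 for Ctrl CLT, and 29.3 and 28.8 for cKO CLT. The first Ctrl CLT library stood with cKO CLT and the second with CLH in this ratio, the same split as in the hair and pigment markers.

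**Figure D4:**
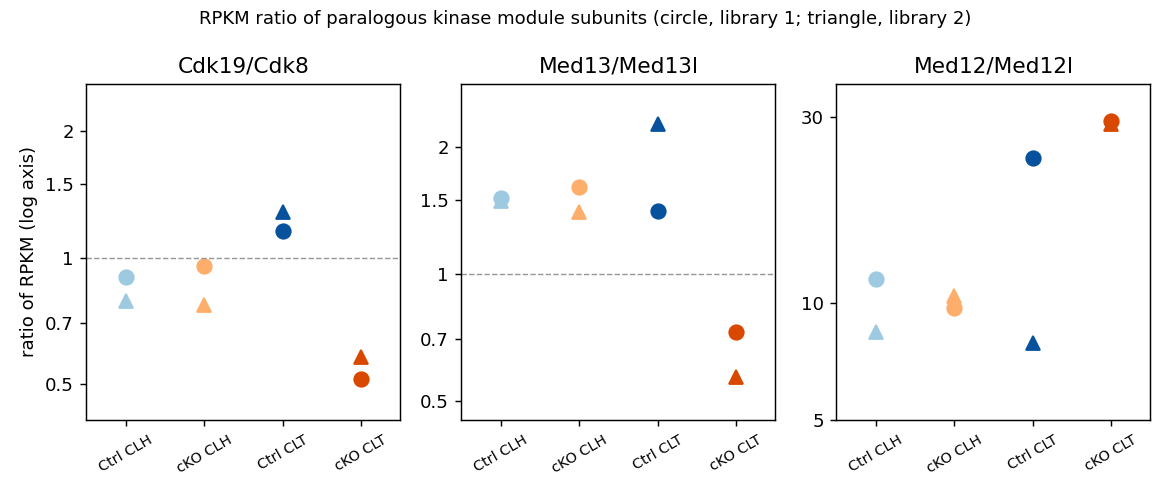
Ratio of RPKM (log axes) of Cdk19 to Cdk8, Med13 to Med13l and Med12 to Med12l in each library, by group (circle, library 1, triangle, library 2, dashed line, a ratio of 1). Both cKO CLT libraries hold the lowest values of the first 2 ratios (0.513 and 0.579, then 0.730 and 0.570), and the third separates the 2 Ctrl CLT libraries.

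Because the Ctrl CLT libraries differed, each CLT difference was also taken against either one. The sign was the same against both for 23 of the 33 subunits (69.7%), beside 79.7% of all genes. Without the first Ctrl CLT library, 12 subunits were called higher (31.4% of all genes) and 10 lower (38.1%), and without the second, 9 higher (29.1%) and 2 lower (23.0%). The lone Ctrl CLT library was then assumed to vary like the cKO libraries. The difference of Med8 was 0.65 without the first library and 0.62 without the second, and that of Med13l 0.62 and 0.68. Med7 moved from -1.01 to -0.31, Med13 from -0.98 to -0.30 and Cdk19 from -0.89 to -0.32, all smaller against the first library.

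**Figure D5:**
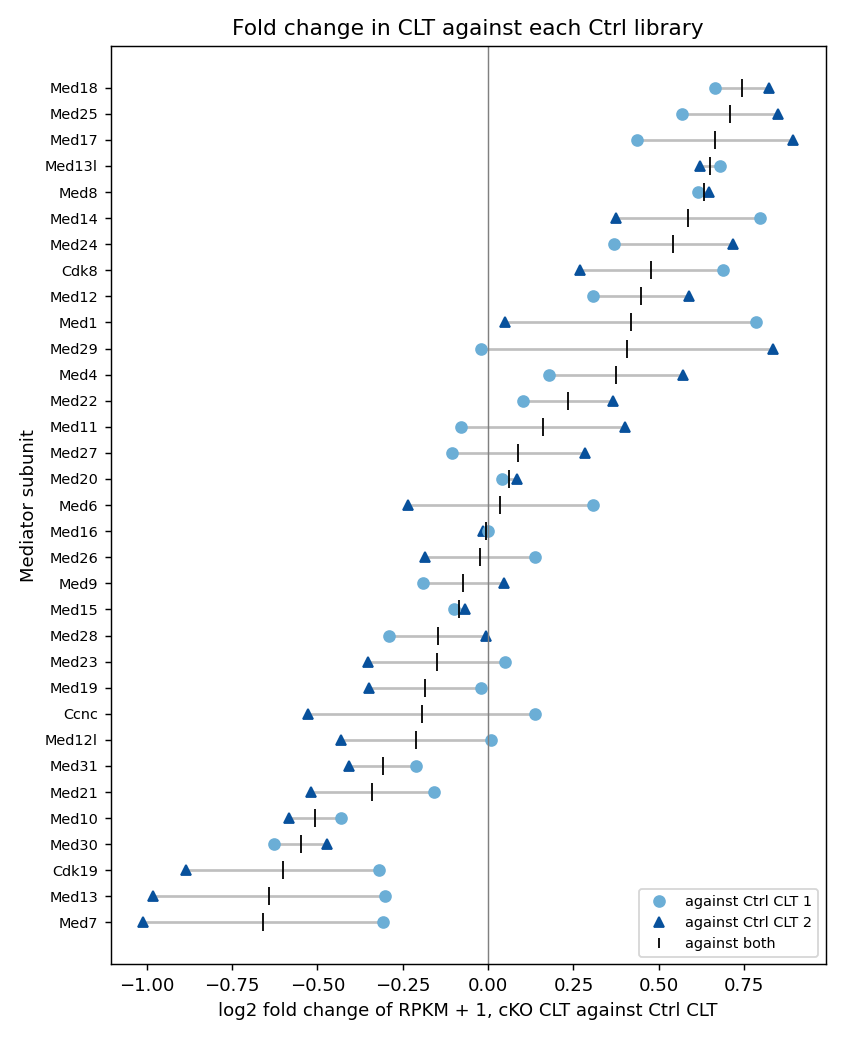
Log2 fold change of RPKM + 1 of both cKO CLT libraries against the first Ctrl CLT library (circles), the second (triangles) and both (ticks), for the 33 subunits in order of the last. The 2 points of a subunit lie on the same side of 0 for 23 of 33 subunits, among them Med8 and Med13l.

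Whether the effect of the deletion differed between progeny and stem cell tissue was tested as the difference of the 2 log2 fold changes over all 8 libraries. This fit takes 1 spread per gene from all 4 groups, although Ctrl CLT varied more than the others. For 2 subunits the difference was positive, Med8 at 0.67 (SE 0.14, adjusted p = 0.0267) and Med13l at 0.59 (SE 0.16, adjusted p = 0.0499), beside 8.05% of all genes. For 1 it was negative, Med10 at -0.60 (SE 0.14, adjusted p = 0.0402), beside 9.58% of all genes. The share of subunits called was no larger than that of all genes. These are the values printed above, where these 3 genes differed little in CLH (Med8 -0.04, Med13l 0.06, Med10 0.09). Med18 (0.70, adjusted p = 0.0668), Med17 (0.70, adjusted p = 0.0816) and Cdk19 (-0.61, adjusted p = 0.171) did not pass, nor did Med13 with the lowest value, -0.70 (adjusted p = 0.187). For Med1 the difference was 0.64 (SE 0.34, adjusted p = 0.214). With the replicate number as a block, 0 subunits were called, as in each fit that left out 1 CLH or cKO CLT library.

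Progeny and stem cell tissue were then compared within each genotype. The 2 comparisons of CLT with CLH and the 2 of cKO with Ctrl share libraries, so their values are set side by side only. In Ctrl mice, 8 subunits were higher and 25 lower in CLT, with a median of -0.19 beside -0.13 for all genes, and 0 passed in either direction (0.00707% of all genes higher, 0.0% lower). Unadjusted p-values fell under 0.05 for 0 subunits in either direction (4.15% of all genes higher, 9.0% lower). Groups did not overlap for 0 subunits that were higher (15.2%) and 12 that were lower (36.8%). The lowest were Med11 (-0.47, adjusted p = 0.432), Med29 (-0.45, adjusted p = 0.553) and Med12 (-0.43, adjusted p = 0.401), and the highest Cdk19 (0.27, adjusted p = 0.606), Med27 (0.19, adjusted p = 0.663) and Med13 (0.18, adjusted p = 0.753). Med27 had RPKM of 13.2 and 11.3 in Ctrl CLH, against 16.3 and 12.2 in Ctrl CLT, which overlapped. Without the second Ctrl CLT library, 6 subunits were called lower (34.9% of all genes) and 0 higher (18.4%). Scaling by median-of-ratios size factors moved the median of all genes from -0.134 to 0.009 and that of the subunits from -0.19 to -0.03, with 16 then positive and 17 negative.

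In cKO mice, 9 subunits were called higher in CLT than in CLH, beside 28.9% of all genes, and 15 lower, beside 45.1%, so the subunits followed the background of a comparison in which most genes were called. The head held 4 of the 9 higher calls (Med8, Med18, Med17 and Med6) and the middle 6 of the 15 lower ones. Med8 rose by 0.68 on the log2 scale (SE 0.09, adjusted p = 0.000201), Med18 by 0.59 (SE 0.12, adjusted p = 0.00252) and Med13l by 0.54 (SE 0.10, adjusted p = 0.00108). Med30 fell by 0.66 (SE 0.10, adjusted p = 0.000316), Med7 by 0.64 (SE 0.11, adjusted p = 0.000751) and Med12l by 0.58 (SE 0.10, adjusted p = 0.000814). Med16 and Med23, tail subunits that bind each other with MED24, fell by 0.53 and 0.52 (adjusted p = 0.00159 and 0.00142). Med16 had RPKM of 9.80 and 9.69 in cKO CLH and 6.03 and 6.93 in cKO CLT, and Med23 11.6 and 11.5 against 8.29 and 7.30. Med1 rose by 0.32 (SE 0.09, adjusted p = 0.013), from 7.10 and 7.03 to 9.15 and 8.96. In the kinase module, Cdk8 (0.28, adjusted p = 0.0452) and Med13l rose, and Med13 (-0.52, adjusted p = 0.00868), Cdk19 (-0.34, adjusted p = 0.0219), Ccnc (-0.27, adjusted p = 0.0397) and Med12l fell. With median-of-ratios scaling, which shifted the median of all genes by 0.19, the calls were 13 higher (37.0% of all genes) and 6 lower (34.8%), and 15 of the 24 calls were made under both scalings. Med28 and Med29, neither called, were the subunits whose sign changed.

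Other lists of the transcription machinery were counted in the same limma fits. In CLT, cKO against Ctrl, 0 of 13 RNA polymerase II subunits, 0 of 33 general transcription factors, 0 of 26 elongation and pause factors, 0 of 21 enhancer cofactors and cohesin subunits, and 0 of 11 tested nuclear receptors that bind MED1 were called in either direction, beside 0.0777% of all genes higher and 1.68% lower. Unadjusted p-values fell under 0.05 for 0, 3, 5, 4 and 3 genes of these lists, in that order, on the higher side. Of all genes, 19.8% did so. On the lower side 4 elongation factors did, beside 16.4% of all genes. The lists had median differences of -0.07, 0.12, 0.11, 0.14 and 0.32, beside 0.036 for the Mediator subunits. Of these receptors, 9 had a positive and 2 a negative difference, with Vdr, the vitamin D receptor, highest at 1.07. In the difference of effects, 3 general transcription factors, 3 elongation factors, 1 enhancer cofactor and 1 nuclear receptor were called higher and 1 elongation factor lower, beside 8.05% of all genes higher and 9.58% lower. The polymerase subunits had 0 calls there, and 0 with an unadjusted p under 0.05. Of all 14148 genes, 2880 had such a p on the higher side and 2495 on the lower side. Between CLT and CLH in cKO, 1 polymerase subunit was called higher and 6 lower, 8 general transcription factors higher and 9 lower, 5 elongation factors higher and 8 lower, 3 enhancer cofactors or cohesin subunits higher and 7 lower, and 6 of the 11 receptors higher and 3 lower. Of all genes, 28.9% were called higher and 45.1% lower in that comparison.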

How the data were processed

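RNA-seq was read from 1 table of 8 libraries, 2 in each of 4 groups, which were set by the sample labels. According to the submitters' processing notes and the study's methods, the authors checked reads with FastQC 0.72, trimmed them with Trim Galore 0.4.3.1, aligned them to mm10 with STAR 2.6.0b-1 and counted them per gene with featureCounts 1.6.3, and DESeq2 2.11.40.2 was named for differential expression. The deposited values are RPKM, read counts scaled to a deposited gene length and to a library total. The annotation, the strand setting and that total are not given in the sources used here. Reads were recovered from the smallest steps of the RPKM. Of the low values from which the step was fitted, 100.0% were whole within 0.1 read, and larger values were not checked. The steps gave library totals of 26591613 to 34420181, of which 82.2% to 85.6% lay on genes. RPKM divides by these totals, so a large share of reads on a few genes lowers the other values of a library. In the first Ctrl CLT library, 7 ameloblast genes held 13.3% of the reads on genes. Its median-of-ratios size factor was 0.909, and that of the second was 1.01. The cKO CLT libraries, with under 0.003% of such reads on these genes, had factors of 0.926 and 0.923.

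Tests were limma 3.58.1 in R 4.3.3 with a variance trend, on log2(RPKM + 1), which understates the change of low genes, over the 14148 genes with RPKM of at least 1 in at least 2 libraries, two-sided, with Benjamini-Hochberg adjustment over all of them and a threshold of 0.05. In the table, 26 names stand on 69 rows, and these were kept as separate rows. Alternatives were pseudocounts of 0.1 and 0.5, no filter or a filter on the mean, median-of-ratios and quantile scaling, all 8 libraries in 1 fit, the replicate number as a block, voom on the recovered reads, and leaving out each library. Scripts were tested on simulated data. The subunits and all lists were chosen with earlier results of these data known. Genes are named with values where they are Med1, Med14 or kinase module subunits, pass a threshold, or are among the 3 highest or lowest of a comparison or in level, and others stand by range. Single differences place other subunits in their module. Exon and transcript sequences are from GENCODE M21 and promoters from RefSeq.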

Additional observations from a re-analysis of the deposited data

Results flagged for a closer look

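For 3 subunits, the test of the difference between the effects in CLT and CLH passed over all 8 libraries (limma, adjusted over all genes). This fit takes 1 spread per gene from all 4 groups, and Ctrl CLT varied most. The median absolute log2 difference of the subunits was 0.35 there, against 0.083 to 0.12 in the other groups. None of the 3 passed in the fit of the CLT libraries alone (adjusted p = 0.0774 for Med8, 0.0855 for Med13l and 0.103 for Med10, limma). The difference was 0.667 on the log2 scale for Med8, 0.591 for Med13l and -0.597 for Med10. Over the alternatives that keep all libraries, the adjusted p ran from 0.0215 to 0.0517 for Med8, from 0.0238 to 0.0857 for Med13l and from 0.0267 to 0.0759 for Med10. In each case both cKO CLT libraries lay outside the range of the other 6 libraries. That held for further subunits too, among them Med18, Med17, Med14, Med30 and Med7, so it does not set these 3 apart. The share of all genes with this trait was not computed. Ameloblast, hair, muscle and pigment cell markers differed between the same libraries, and their part in these differences was not tested.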

How the results depend on the processing

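With 2 libraries a group, counts of calls moved when a single library was left out, in all comparisons but cKO against Ctrl in CLH. Leaving out 1 library at a time gave 0 to 12 subunits higher and 0 to 10 lower in CLT (cKO against Ctrl), 0 to 10 higher and 0 to 5 lower in the difference of effects, 0 to 6 lower in CLT against CLH of Ctrl mice, and 4 to 5 higher and 7 to 10 lower in CLT against CLH of cKO mice. All 8 libraries in 1 fit gave 8 subunits higher (23.7% of all genes) and 2 lower (20.0%) in CLT, cKO against Ctrl. The same setting gave 3 higher and 6 lower between regions of cKO mice. Without a filter on low values, which adds genes to the adjustment, 4 were higher and 9 lower between regions of cKO mice and 0 lower in the difference of effects. Voom also gave 0 lower in the difference of effects, a pseudocount of 0.5 gave 1 higher there, and median-of-ratios scaling gave 6 lower (34.8% of all genes) between regions of cKO mice. In CLT, cKO against Ctrl, 0.0777% of all genes were called higher in the fit of the 4 CLT libraries and 23.7% with all 8. The background thus moves with the setting, and counts given here without a share of all genes are no result about the subunits. The cause of the shifts in the counts was not tested. In CLH, all alternatives gave 0 calls.

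In CLT, the sign turned when 1 Ctrl CLT library was left out for 10 subunits, Ccnc (-0.53 to 0.14), Med12l (-0.43 to 0.010), Med6, Med9, Med11, Med16, Med23, Med26, Med27 and Med29. It also turned for Med27 (-0.010 to 0.38), Cdk19 (-0.013 to 0.55) and Med13 (-0.16 to 0.52) between regions of Ctrl mice. The labels do not say that replicate numbers mark a litter. Deviations of same-numbered libraries correlated at 0.066 between Ctrl and cKO CLH, at -0.192 between Ctrl and cKO CLT, at 0.195 between regions of Ctrl mice and at 0.307 between regions of cKO mice. With the replicate block, 0 subunits were called higher and 0 lower in the difference of effects, and 10 higher and 16 lower between regions of cKO mice. The shares of all genes in these block fits were not computed.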
